A study of Mus musculus with 8 samples.

Results

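The genes described here are 36 targets and regulators of TGF-beta signalling, of serum response factor (SRF) and of the co-activator YAP, taken by name from the 35080 genes on a mouse expression array. They were matched to the array's own gene names, and 56 probes carried them. For each gene the brightest probe that passed the filter on dim probes stood for it, so 35 of the 36 were tested. The exception was Lmod1, which encodes the actin nucleator leiomodin 1. Its only probe was not well above background on any of the 8 arrays. The array uses older names for 3 of them: Ctgf is now Ccn2, Cyr61 is now Ccn1 and Mkl1 is now Mrtfa.

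The cells were mature adipocytes derived in culture from 3T3-L1, a mouse preadipocyte line, so every group stems from that line. They were kept for 72 h with chrysotile, with crocidolite or with amosite, each at 10 mg/cm2 as the labels write the dose, or with physiological saline. Chrysotile is the serpentine form of asbestos, with curled fibres, whereas crocidolite and amosite are amphiboles, with straight and iron-rich fibres. There were 2 arrays for every one of the 4 groups, and the saline cells received no particle. The labels do not say whether replicates were separate cultures, so each p-value reflects the spread between arrays, and this spread may be technical. Cy3-labelled total RNA was hybridised to Agilent 1-colour arrays. All values are log2 processed intensity relative to the 75th percentile of the array, called a level here, and can be set against each other between arrays but not between probes.

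TGF-beta ligands are secreted in latent form, held in the matrix by binding proteins and released to act on receptor kinases that phosphorylate SMAD proteins. The SMADs switch on matrix genes together with their own inhibitors. SRF switches on actin and contractile genes when its co-factors of the MRTF family enter the nucleus as free actin monomer is used up. YAP works with TEAD factors at growth and matrix genes, and the LATS kinases of the Hippo pathway hold it in the cytoplasm. In the 3T3-L1 system preadipocytes carry stress fibres, which are lost as the cells round up and fill with lipid, and TGF-beta is known to block that differentiation.

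Promoter sequences show what binding letters lie near the start sites of these genes. RefSeq promoters (GRCm38.p6) were matched for 29 of the 36. Tgfb3, Thbs1, Ctgf, Smad7, Skil, Actg2 and Tagln had no matched promoter and were not searched. The 250 bases before the start site were searched on both strands for the CArG box bound by SRF (a run of A and T between a pair of C and a pair of G), for the TEAD core GGAATG and for the SMAD-type letters CAGACA. No match overlapped another motif in a member. Cyr61 and Ankrd1 are shown as YAP targets, Acta2 as the smooth muscle actin gene, and Srf and Myl9 as holders of CArG boxes. Capitals mark the motifs, and each sequence reads 5′ to 3′ in the direction of its gene. The windows are chr3:145649986-145650235, chr19:36119845-36120094, chr19:34255374-34255623 and chr17:46556163-46556412 on the minus strand and chr2:156775214-156775463 on the plus strand.
Cyr61: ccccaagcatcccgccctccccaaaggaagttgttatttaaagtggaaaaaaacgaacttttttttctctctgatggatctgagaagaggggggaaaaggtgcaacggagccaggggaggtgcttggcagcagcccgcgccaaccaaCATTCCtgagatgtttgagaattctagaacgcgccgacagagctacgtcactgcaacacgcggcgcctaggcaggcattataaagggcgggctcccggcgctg
Ankrd1: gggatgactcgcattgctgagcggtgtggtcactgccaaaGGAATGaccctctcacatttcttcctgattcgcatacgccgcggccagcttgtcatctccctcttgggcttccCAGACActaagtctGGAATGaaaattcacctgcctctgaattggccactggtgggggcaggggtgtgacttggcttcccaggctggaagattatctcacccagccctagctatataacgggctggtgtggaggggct
Acta2: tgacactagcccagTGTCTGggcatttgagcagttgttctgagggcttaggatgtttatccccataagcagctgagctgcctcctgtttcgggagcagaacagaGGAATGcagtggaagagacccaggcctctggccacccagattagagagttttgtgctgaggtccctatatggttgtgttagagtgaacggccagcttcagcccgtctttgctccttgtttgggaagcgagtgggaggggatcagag
Srf: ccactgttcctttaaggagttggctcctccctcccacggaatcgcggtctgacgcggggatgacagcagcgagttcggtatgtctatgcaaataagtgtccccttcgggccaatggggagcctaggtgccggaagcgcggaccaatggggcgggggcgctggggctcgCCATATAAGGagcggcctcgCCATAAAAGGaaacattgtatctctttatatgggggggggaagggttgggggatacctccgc
Myl9: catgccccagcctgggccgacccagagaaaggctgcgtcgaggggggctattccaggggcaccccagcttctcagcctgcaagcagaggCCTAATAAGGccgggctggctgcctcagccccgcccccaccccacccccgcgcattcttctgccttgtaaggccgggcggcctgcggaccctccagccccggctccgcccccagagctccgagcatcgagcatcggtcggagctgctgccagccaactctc

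A CArG box lay in the window of 5 of the 29 genes (17.2%), namely Cnn2, Fhl2, Myl9, Srf and Vcl, against 1.62% of the 27025 genes in the table. Srf held 2 of them, at positions -82 and -62 from the start. GGAATG lay in 12 of 29 (41.4%) against 14.4% of genes. It occurred at -210 and -123 in Ankrd1, at -103 in Cyr61 and at -146 in Acta2. CAGACA lay in 6 of 29 (20.7%) against 19.3% of genes. A match describes these letters only and is no evidence that a factor binds there, and a window without a match says nothing of the factor.

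The scanner called 56.2% to 62.8% of 55681 probes well above background, depending on the array, and 33 of the 36 genes had that call on all 8. Ankrd1 lacked it on 1 saline array. Cnn1 lacked it on 1 chrysotile, 1 crocidolite and 1 saline array. All 10 adipocyte markers passed the filter, with levels from -2.97 to -1.80 for Lep to 9.77 to 10.1 for Cfd. All 10 preadipocyte and fibroblast markers passed as well, with Dlk1 at 6.97 to 8.11. Passing the filter therefore does not tell these cell types apart. The adipocyte markers' summed linear level was 2830 to 2970 on the chrysotile arrays and 2740 to 2900 on the crocidolite arrays. It was 2810 to 2890 on the amosite arrays and 2760 to 3500 on the saline arrays, in multiples of the 75th percentile. Such a sum adds levels across probes and weighs the brightest most, so it does not measure the amount of a cell type. All 8 arrays lay on 1 slide and were scanned on 1 day. The array's place on the slide followed replicate number along its rows or columns and group along the other, so place and group cannot be told apart.

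Most of the set had higher levels with chrysotile and with crocidolite than with saline, while amosite gave about as many higher as lower. Of the 35 genes, 32 had a positive log2 difference for chrysotile minus saline, with a median of 0.22, and 33 for crocidolite minus saline, with a median of 0.28. For amosite minus saline 18 were positive and 17 negative, with a median of 0.02. Over all 23054 genes tested the shares that were positive were 48.8%, 46.3% and 44.6%, with medians of -0.01, -0.02 and -0.02. The set was drawn up with results of these data in view, so its counts beside those of all genes are a description. These comparisons share the saline arrays, so they are not independent of each other. Crocidolite and amosite, compared without the saline arrays, differed in the same sense: 34 of 35 genes were higher with crocidolite, with a median difference of 0.26, against 48.5% of all genes and a median of -0.01. Calponin 1 (Cnn1) was the exception, and it had passed the filter on dim probes only through amosite, the group where it was highest. Among the 33 genes well above background on all 8 arrays, 30, 32 and 16 were positive for chrysotile, crocidolite and amosite minus saline, and 33 for crocidolite minus amosite.

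No single gene passed the test. With limma and Benjamini-Hochberg adjustment over all genes, 0 of the 35 were called in each of the 6 comparisons made, where 0% of all genes were called as well. The smallest adjusted p among the 35 was 0.58, for Tpm4 in crocidolite minus saline. Over all genes the smallest was 0.0504, for the mean of the fibres against saline. At an unadjusted p under 0.05, 6 of the 35 were higher with chrysotile (2.82% of all genes), 5 with crocidolite (2.86%), 0 with amosite (1.08%) and 7 with crocidolite than with amosite (2.48%). No gene of the 35 was lower at that level, while 2.66%, 4.41%, 1.58% and 2.64% of all genes were. With the replicate number as a block, the counts of higher genes were 15 (5.53%), 17 (5.62%), 1 (1.74%) and 15 (5.21%). Again 0 genes passed the adjusted threshold. Same-numbered arrays deviated together, but the labels do not say what they share beyond the number.

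**Figure D1:**
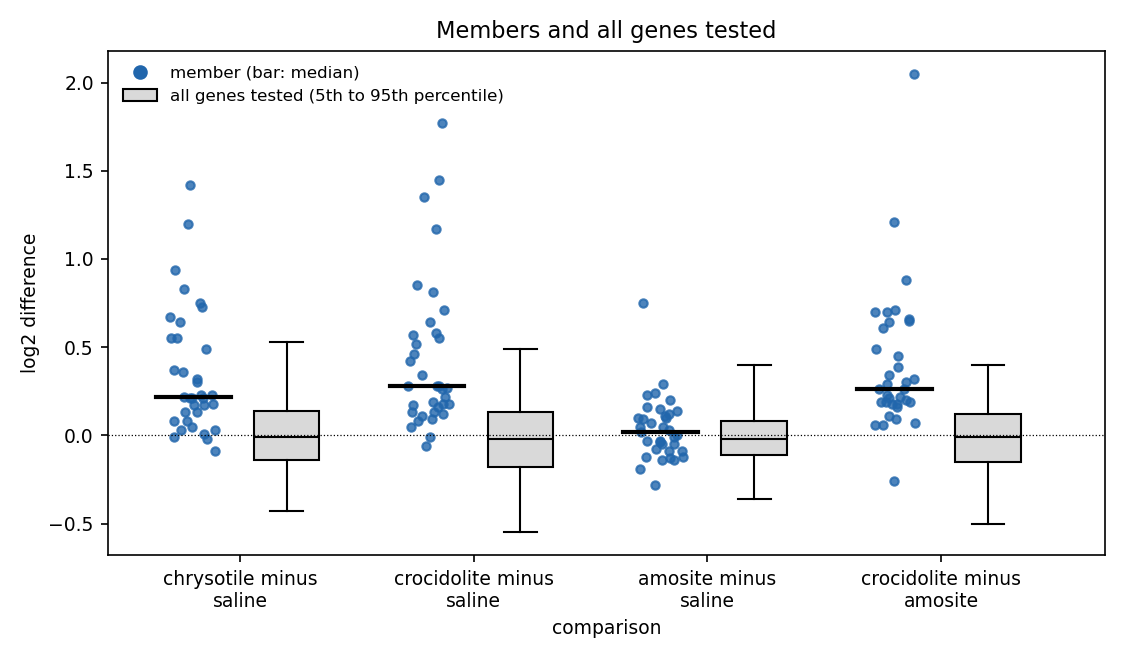
Log2 differences of the 35 genes (points, with a bar at their median) beside those of all 23054 genes tested (box with median and quartiles, whiskers at the 5th and 95th percentile) in 4 comparisons. The points lie mostly above 0 in chrysotile minus saline, crocidolite minus saline and crocidolite minus amosite (medians 0.22, 0.28 and 0.26) and about 0 in amosite minus saline (median 0.02).

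Overlap between the arrays gives a view free of the fitted spread. Both chrysotile arrays lay above both saline arrays for 15 genes, when 14.2% of all genes did so. Both crocidolite arrays did for 19 genes, against 14.6% of all genes. Mkl1 alone lay lower on both arrays of either fibre, when 15.3% of all genes did with chrysotile and 19.9% with crocidolite. For amosite 0 genes did (8.2% of all genes), and 4 genes, namely Thbs1, Srf, Mkl1 and Flna, lay lower on both amosite arrays (12.9%). Both crocidolite arrays lay above both amosite arrays for 20 genes (17.6%) and below them for 0 (20.3%). By replicate pair, 25 genes were higher with chrysotile than with saline in both pairs (23.9% of all genes), 30 with crocidolite (25%), 13 with amosite (17.6%), and 32 with crocidolite than with amosite (33.5%).

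**Figure D2:**
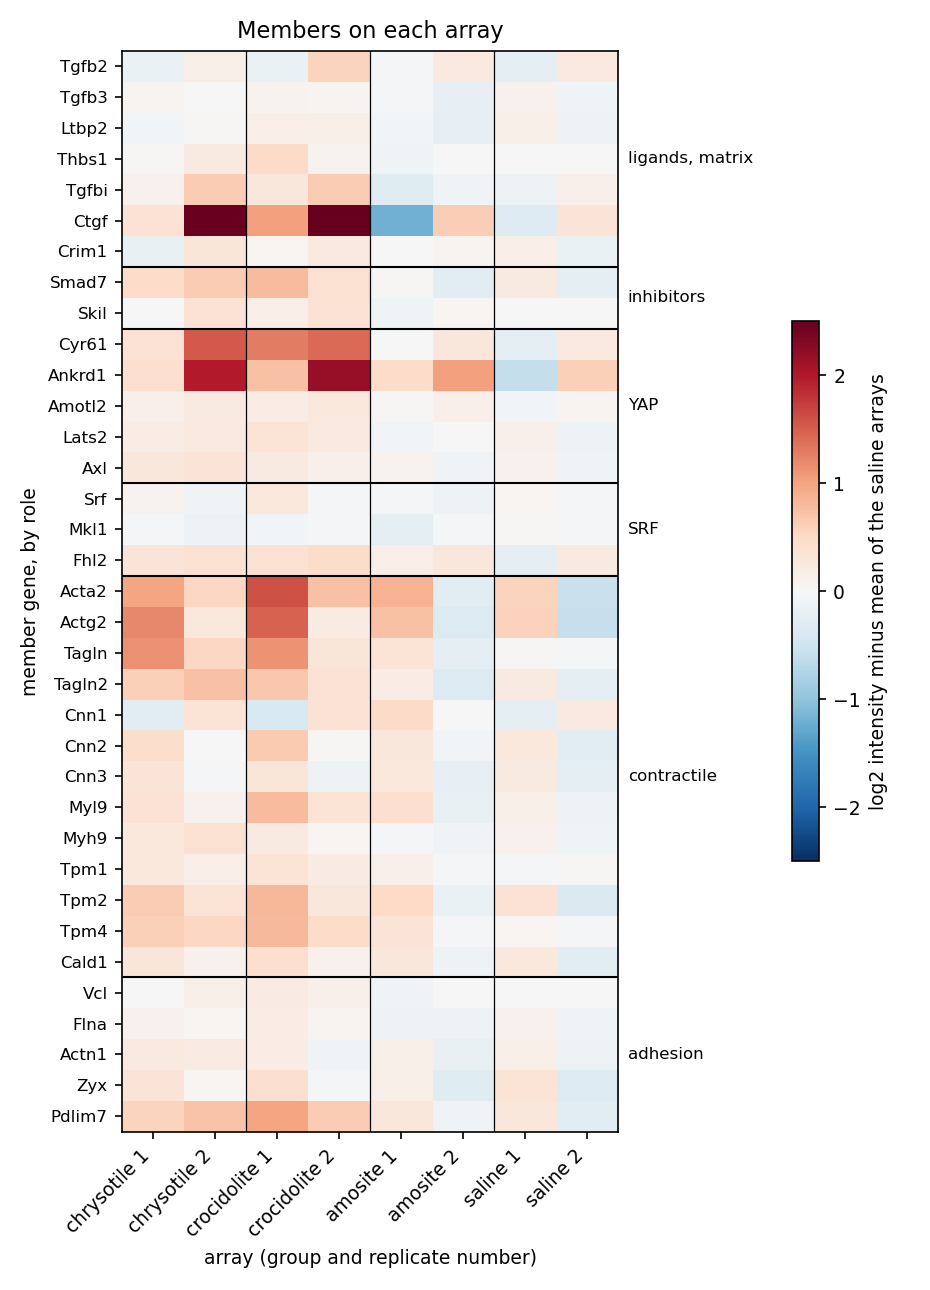
Level of each of the 35 genes on each of the 8 arrays, as log2 intensity minus the mean of the saline arrays of that gene, with genes in rows by role and arrays in columns. The darkest cells are Ctgf and Ankrd1 on the chrysotile 2 and crocidolite 2 arrays, and Acta2, Actg2 and Tagln are darker on the replicate 1 arrays of each fibre than on its replicate 2 arrays.

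Among the ligands and matrix genes, Ctgf had the largest differences and the ligands Tgfb2 and Tgfb3 small ones. Ctgf (Ccn2) encodes a secreted matricellular protein induced by TGF-beta and by YAP, and its probe lies at chr10:24318281-24318340 (mm9, the build of all probe positions here; which exon or untranslated region a probe falls in was not analysed here). Its level was -2.86 and -0.75 on the chrysotile arrays, -2.19 and -0.73 on the crocidolite arrays, -4.42 and -2.60 on the amosite arrays and -3.55 and -2.90 on the saline arrays. Both chrysotile and both crocidolite arrays lay above both saline arrays, while the amosite arrays lay on either side of them. The log2 difference from saline was 1.42 ± 0.92 with chrysotile, 1.77 ± 0.92 with crocidolite and -0.28 ± 0.92 with amosite (SE, n = 2 arrays a group, spread pooled over the 8 arrays). With normexp background correction these became 0.75, 0.93 and -0.12. Crocidolite exceeded amosite by 2.05 ± 0.92 (1.05 with normexp), with a 95% interval of -0.17 to 4.27 and an adjusted p of 0.973 in limma's fit. That fit leaves out the replicate block. With the block the unadjusted p in limma's fit was 0.00204, against 0.0651 without it, and the adjusted p was 0.429. The replicate 2 array was the higher in all 4 groups, by 1.51 on average.

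The other 6 genes of this role differed less. Tgfbi, which encodes a TGF-beta-induced matrix protein, stood 0.46 ± 0.22 above saline with crocidolite, and Tgfb3, a ligand, had the smallest difference there at 0.08 ± 0.13. Tgfbi also differed most after Ctgf between crocidolite and amosite, by 0.64 ± 0.22 (unadjusted p = 0.0275, adjusted p = 0.889 in limma's fit). With chrysotile the lowest was Ltbp2, a fibrillin-binding relative of the latent TGF-beta binding proteins, at -0.02 ± 0.14. With amosite the highest was the ligand Tgfb2, at 0.10 ± 0.29. The role had 5 of 7 genes positive with chrysotile, 7 of 7 with crocidolite and 2 of 7 with amosite, with medians of 0.05, 0.19 and -0.12. Crim1, a transmembrane binder of BMP ligands, and Thbs1, a matrix protein that can activate latent TGF-beta, are counted among them.

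Both feedback inhibitors of SMAD signalling had higher mean levels with chrysotile and crocidolite than with saline, Skil with overlap in chrysotile. Smad7 blocks the TGF-beta receptor. Its level was -0.78 and -0.60 with chrysotile, -0.45 and -0.86 with crocidolite, -1.22 and -1.50 with amosite and -1.02 and -1.46 with saline. Neither chrysotile nor crocidolite overlapped saline, and amosite did. The differences from saline were 0.55 ± 0.22, 0.58 ± 0.22 and -0.12 ± 0.22. Crocidolite exceeded amosite by 0.70 ± 0.22 (95% interval 0.17 to 1.23, unadjusted p = 0.0179, adjusted p = 0.873 in limma's fit). Skil, the SMAD co-repressor SnoN, stood 0.17 ± 0.16, 0.26 ± 0.16 and -0.03 ± 0.16 from saline. Its chrysotile arrays, at 1.34 and 1.72, overlapped the saline arrays, at 1.37 and 1.34. The crocidolite arrays lay above saline. The other passing probe of Skil gave -0.05, 0.13 and 0.00 for the 3 fibres.

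All 5 YAP targets and regulators were higher with chrysotile and with crocidolite than with saline, with medians of 0.30 and 0.28, and 3 of 5 with amosite, with a median of 0.07. In this role both crocidolite arrays lay above both saline arrays for every gene. Cyr61 (Ccn1), a matricellular relative of Ctgf, has its probe at chr3:145310187-145310246. Its level was 0.21 and 1.38 with chrysotile, 1.14 and 1.28 with crocidolite, -0.15 and 0.14 with amosite and -0.38 and 0.09 with saline. The crocidolite arrays were close to each other and well clear of amosite and saline, which overlapped. The difference from saline was 0.94 ± 0.38 with chrysotile, 1.35 ± 0.38 with crocidolite (2.56-fold, 95% interval 0.43 to 2.28, adjusted p = 0.59 in limma's fit) and 0.14 ± 0.38 with amosite. Crocidolite exceeded amosite by 1.21 ± 0.38, with an interval of 0.29 to 2.14.

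Ankrd1 encodes a nuclear ankyrin repeat protein and is a standard readout of YAP, with its probe at chr19:36186809-36186868. Its level was -3.82 and -2.27 with chrysotile, -3.52 and -2.07 with crocidolite, -3.78 and -3.21 with amosite and -4.84 and -3.65 with saline. Both crocidolite arrays lay above both saline arrays. Chrysotile and amosite each had an array inside the range of saline. The differences from saline were 1.20 ± 0.71, 1.45 ± 0.71 and 0.75 ± 0.71. They rest on a saline group with 1 array not well above background, Ankrd1 having passed the filter through the fibre groups, and with normexp background correction they became 0.34, 0.39 and 0.14. Within each replicate pair the fibre array was the higher for all 3 fibres. The saline array at -4.84 was the lowest of the 8.

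The other 3 of this role differed by less. Amotl2, an angiomotin-family protein that holds YAP at junctions, had the smallest difference with chrysotile, at 0.17 ± 0.11, and with crocidolite the smallest was that of the receptor tyrosine kinase Axl, at 0.18 ± 0.13. Lats2, the kinase that restrains YAP and is itself a YAP target, had the lowest difference with amosite, at -0.03 ± 0.13. It stood 0.32 ± 0.13 higher with crocidolite than with amosite. Its other passing probe gave 0.43, 0.39 and 0.29 for chrysotile, crocidolite and amosite minus saline. That probe gave only 0.10 for crocidolite minus amosite.

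Of the 3 SRF factors, Srf and Mkl1 had small differences from saline and Fhl2 larger ones. Mkl1 (Mrtfa), the SRF co-activator, was the lowest of the 35 with chrysotile and with crocidolite, at -0.09 ± 0.12 and -0.06 ± 0.12, and stood at -0.13 ± 0.12 with amosite. Srf was at 0.01 ± 0.15 with chrysotile, 0.11 ± 0.15 with crocidolite and -0.09 ± 0.15 with amosite. The third, Fhl2, encodes a LIM protein induced by SRF that binds it, and its probe lies at chr1:43179994-43180053. Its level was 4.12 and 4.18 with chrysotile, 4.17 and 4.25 with crocidolite, 3.96 and 4.08 with amosite and 3.56 and 4.02 with saline. Chrysotile and crocidolite lay above saline, and amosite overlapped it through the higher saline array. The differences were 0.36 ± 0.17, 0.42 ± 0.17 and 0.23 ± 0.17.

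The contractile genes encode actin isoforms, myosin chains and actin-binding proteins of stress fibres and smooth muscle. Of the 13 tested, 13 were higher with chrysotile than with saline (median 0.32), 12 with crocidolite (median 0.52) and 11 with amosite (median 0.11). Acta2, smooth muscle alpha-actin and the usual marker of myofibroblasts, has its probe at chr19:34316060-34316119. Its level was 4.17 and 3.70 with chrysotile, 4.79 and 3.93 with crocidolite, 4.05 and 2.91 with amosite and 3.74 and 2.64 with saline. The crocidolite arrays lay above saline, and in every group replicate 1 was the higher. Its difference from saline was 0.75 ± 0.54, 1.17 ± 0.54 and 0.29 ± 0.54 for the 3 fibres, and in each replicate pair the order ran crocidolite, chrysotile, amosite, saline. For crocidolite the unadjusted p in limma's fit was 0.00139 with the replicate block (adjusted p = 0.283) and 0.071 without it.

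Actg2, the gamma-actin of smooth muscle, has its probe at chr6:83462904-83462963. Its level was -1.83 and -2.77 with chrysotile, -1.55 and -2.82 with crocidolite, -2.29 and -3.37 with amosite and -2.45 and -3.61 with saline. Every group overlapped saline, and replicate 2 minus replicate 1 averaged -1.11 over the groups. The differences from saline were 0.73 ± 0.64, 0.85 ± 0.64 and 0.20 ± 0.64, and with normexp background correction 0.27, 0.33 and -0.01. With the replicate block the unadjusted p in limma's fit was 0.00114 with chrysotile and 0.000564 with crocidolite, against 0.297 and 0.232 without it. The adjusted p with the block was 0.438 and 0.283 in limma's fit.

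Tagln, or SM22, is an actin cross-linker and a classic SRF target, with its probe at chr9:45738097-45738156. Its level was 3.17 and 2.55 with chrysotile, 3.15 and 2.33 with crocidolite, 2.38 and 1.79 with amosite and 2.06 and 2.01 with saline. Chrysotile and crocidolite lay above saline, and amosite lay on both sides of it. The differences were 0.83 ± 0.35, 0.71 ± 0.35 and 0.05 ± 0.35, that with chrysotile being the largest of the role. Its relative Tagln2 (chr1:174437450-174437506) had levels of 4.28 and 4.42 with chrysotile, 4.36 and 4.04 with crocidolite, 3.87 and 3.33 with amosite and 3.91 and 3.45 with saline. Here too amosite overlapped saline and the other fibres did not. Tagln2 differed from saline by 0.67 ± 0.24, 0.52 ± 0.24 and -0.09 ± 0.24.

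The tropomyosins lie along actin filaments and stabilise them. Tpm4 (chr8:74676891-74676950) had levels of 5.25 and 5.17 with chrysotile, 5.48 and 5.12 with crocidolite, 4.98 and 4.64 with amosite and 4.71 and 4.61 with saline. Its differences from saline were 0.55 ± 0.18, 0.64 ± 0.18 and 0.15 ± 0.18. For crocidolite this is 1.56-fold, with a 95% interval of 0.21 to 1.07 on the log2 scale, an unadjusted p of 0.0103 and an adjusted p of 0.58 in limma's fit. Chrysotile and crocidolite were clear of saline in Tpm4. Tpm2 (chr4:43532262-43532321) stood at 1.85 and 1.57 with chrysotile, 2.05 and 1.50 with crocidolite, 1.72 and 1.05 with amosite and 1.59 and 0.85 with saline. All 3 fibres overlapped saline in Tpm2, with differences of 0.49 ± 0.35, 0.55 ± 0.35 and 0.16 ± 0.35. The mean of its probes gave 0.31 with chrysotile.

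Myl9, the regulatory light chain of smooth muscle and non-muscle myosin, has its probe at chr2:156607301-156607360. Its level was 2.96 and 2.69 with chrysotile, 3.39 and 2.93 with crocidolite, 3.01 and 2.41 with amosite and 2.74 and 2.44 with saline. Only the crocidolite arrays were clear of saline, and the differences were 0.23 ± 0.26, 0.57 ± 0.26 and 0.12 ± 0.26. Calponin 2 (Cnn2, chr10:79457785-79457844), an actin-binding regulator of myosin, stood at 3.18 and 2.74 with chrysotile, 3.40 and 2.78 with crocidolite, 3.03 and 2.67 with amosite and 3.01 and 2.48 with saline. Every fibre overlapped saline in Cnn2, and the differences were 0.22 ± 0.30, 0.34 ± 0.30 and 0.11 ± 0.30. Leaving out 1 array turned the sign of Cnn2 with chrysotile, where it ran from -0.05 to 0.48, although both replicate pairs were positive at 0.17 and 0.26. Centring on the median gave 0.52 with crocidolite.

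Calponin 1 (Cnn1), the smooth muscle isoform, was the lowest of the role with chrysotile and with crocidolite, at 0.03 ± 0.35 and -0.01 ± 0.35, and lay near background. The remaining contractile genes, namely Cnn3, the non-muscle myosin heavy chain Myh9, Tpm1 and caldesmon (Cald1), lay between these limits. Myh9 exceeded the mean of the amphiboles with chrysotile by 0.28 ± 0.11 (unadjusted p = 0.0477, adjusted p = 1 in limma's fit). No other gene of the 35 passed an unadjusted p under 0.05 there. The other passing probe of Myh9 had the opposite sign, at -0.19. For chrysotile minus saline that probe gave -0.12, against 0.32 on the brightest probe.

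All 5 adhesion and cross-linking genes had higher means with chrysotile and with crocidolite than with saline (medians 0.18 and 0.17). With amosite 1 of 5 did (median -0.04). Both fibre arrays lay above both saline arrays in 2 genes with chrysotile (14.2% of all genes) and in 2 with crocidolite (14.6%). Both replicate pairs were higher in 3 with chrysotile (23.9%) and in 5 with crocidolite (25%). Pdlim7, the LIM protein enigma that sits on actin filaments, led with each fibre, and its probe lies at chr13:55599777-55599836. Its level was 3.77 and 3.91 with chrysotile, 4.19 and 3.84 with crocidolite, 3.49 and 3.12 with amosite and 3.48 and 2.93 with saline. Chrysotile and crocidolite did not overlap saline, whereas amosite did. The differences were 0.64 ± 0.24, 0.81 ± 0.24 and 0.10 ± 0.24, and crocidolite exceeded amosite by 0.71 ± 0.24 (95% interval 0.13 to 1.29, adjusted p = 0.873 in limma's fit). Its other passing probes differed from each other. The probe at chr13:55598956-55599015 gave only 0.09, 0.24 and -0.09, and 0.33 for crocidolite minus amosite. The probe at chr13:55610290-55610349 gave 0.68, 0.80 and 0.08, and 0.72. The lowest of the role were Vcl (vinculin, a focal adhesion protein) with chrysotile at 0.08 ± 0.11, Actn1 (alpha-actinin 1, a cross-linker) with crocidolite at 0.05 ± 0.18 and Flna (filamin A, a cross-linker) with amosite at -0.14 ± 0.12. Zyx, the focal adhesion protein zyxin, lay between these limits.

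**Figure D3:**
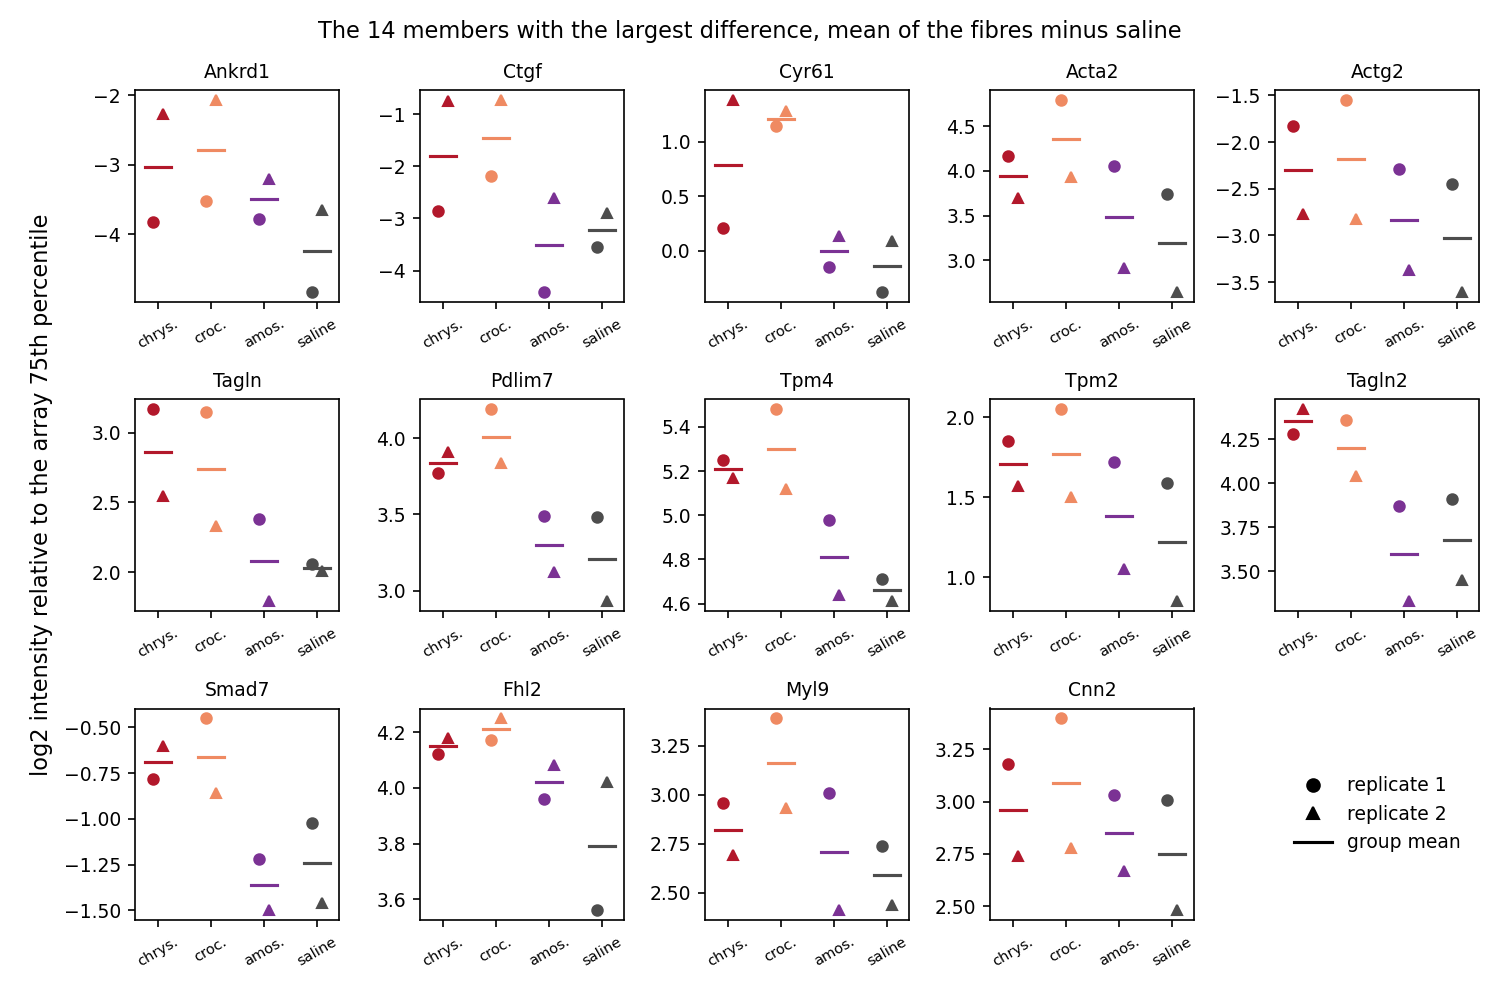
Level of the 14 genes with the largest absolute difference between the mean of the fibres and saline, as log2 intensity relative to the array's 75th percentile, by group; circles are replicate 1, triangles replicate 2 and bars the group mean. Chrysotile and crocidolite lie above saline in Cyr61, Tagln, Tagln2, Tpm4, Pdlim7, Smad7, Fhl2 and Ctgf, and amosite overlaps saline in each of the 14.

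Between the amphiboles the median difference was positive in every role, although no gene passed the adjusted threshold. For crocidolite minus amosite it was 0.30 in ligands and matrix, 0.49 in feedback inhibitors, 0.32 in YAP targets and regulators, 0.19 in SRF factors, 0.39 in contractile genes and 0.26 in adhesion genes. The 7 genes at an unadjusted p under 0.05 were Tgfbi, Smad7, Cyr61, Lats2, Tagln2, Tpm4 and Pdlim7, named because the count is small. The replicate pairs gave much the same median, 0.29 in replicate 1 and 0.27 in replicate 2, against -0.01 and 0.01 over all genes.

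**Figure D4:**
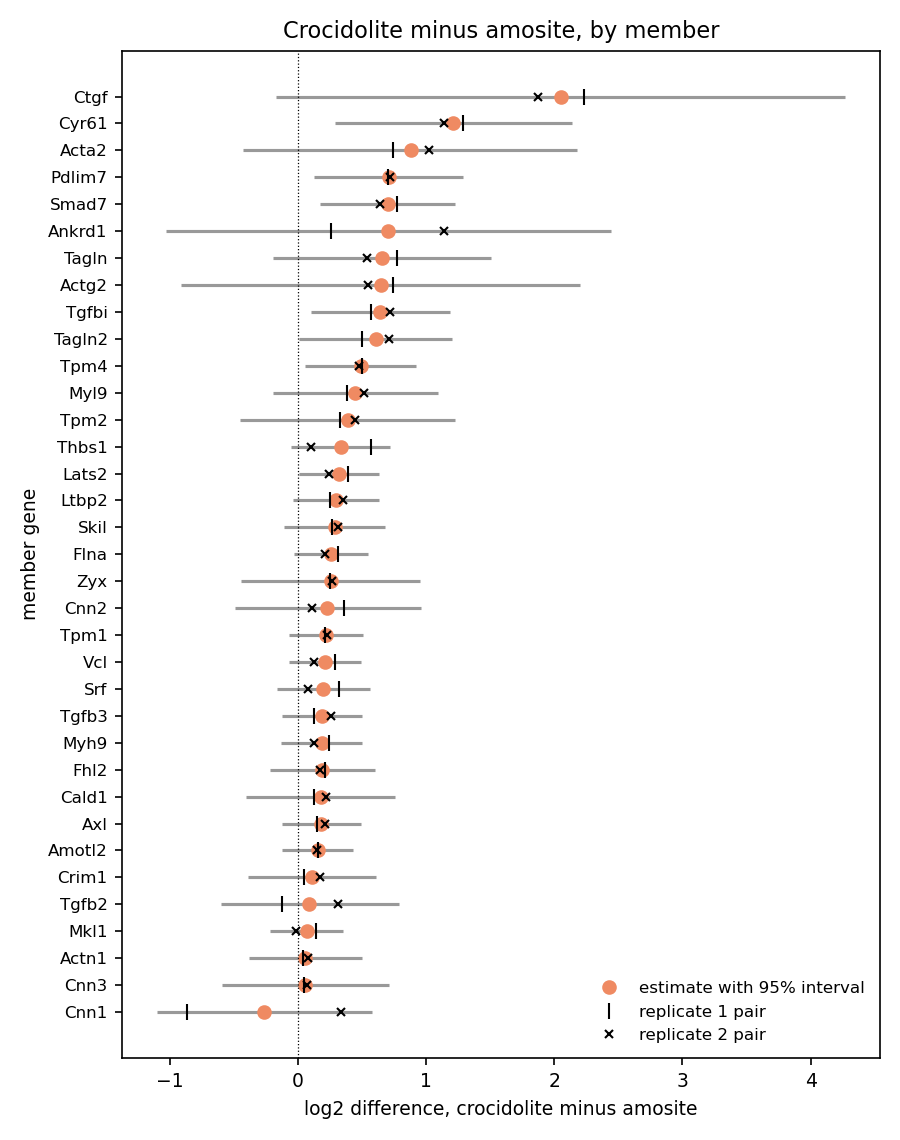
Log2 difference of crocidolite minus amosite for each of the 35 genes, ordered by size, with the difference within each replicate pair. Lines are 95% intervals (n = 2 arrays a group) from the fit without the replicate block. All genes but Cnn1 lie to the right of 0, Ctgf and Cyr61 furthest at 2.05 and 1.21, and most intervals include 0.

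The order of the group means was crocidolite, chrysotile, amosite in 26 of 35 genes, an order that 19.6% of all genes had. It was chrysotile, crocidolite, amosite in 7, namely Axl, Tagln, Tagln2, Cnn3, Myh9, Actn1 and Zyx (18.4% of all genes). Tgfb2 and Cnn1 had other orders. Chrysotile exceeded the mean of crocidolite and amosite in 29 of 35 genes, when 54.1% of all genes did, but the median was 0.08 (0.01 over all genes) and the range -0.15 for Tgfb2 to 0.68 for Ctgf. In 3 genes both chrysotile arrays lay above all amphibole arrays (4.89% of all genes), and in 0 below them (3.92%). Both replicate pairs were higher in 18 genes (31.7%). At an unadjusted p under 0.05 there was 1 gene higher (1.87%), and with the replicate block 3 (3.47%). With arrays centred on their median the count of 29 became 18. The mean of the fibres was above saline in 32 of 35 genes, when 46.5% of all genes were, with a median of 0.16 (-0.01 over all genes). At an unadjusted p under 0.05 3 genes were higher (2.29%), namely Cyr61, Tpm4 and Pdlim7, and 12 with the replicate block (4.55%). Both replicate pairs were higher in 26 genes (20.3%). All arrays of the fibres lay above both saline arrays in 0 genes (2.02%) and below them in 1, Mkl1 (4.92%). Leaving out single arrays took the count above saline to at most 12, without saline replicate 1. The count of chrysotile above the amphiboles rose to at most 7. The shares of all genes on those reduced sets are not given here.

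Many of the genes differed between replicates in the same sense in every group. Replicate 1 was the higher in all 4 groups for 14 genes, 9 of them among the 13 contractile genes, as in Acta2, Actg2, Tagln, Tpm2 and Myl9. Replicate 2 was the higher in all 4 groups for 7 genes, with Ctgf, Ankrd1, Cyr61, Tgfb2 and Tgfbi among them. That makes 60% of the 35 with the same sign in all groups, against 36.9% of all genes. The correlation of the replicate differences between groups, taken across the 35 genes, which are not independent, ran from 0.758 to 0.898, and across all genes from 0.254 to 0.455. The median size of the replicate difference was 0.189 in chrysotile, 0.323 in crocidolite, 0.283 in amosite and 0.299 in saline, beside median differences from saline of 0.22, 0.28 and 0.02 for the 3 fibres.

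**Figure D5:**
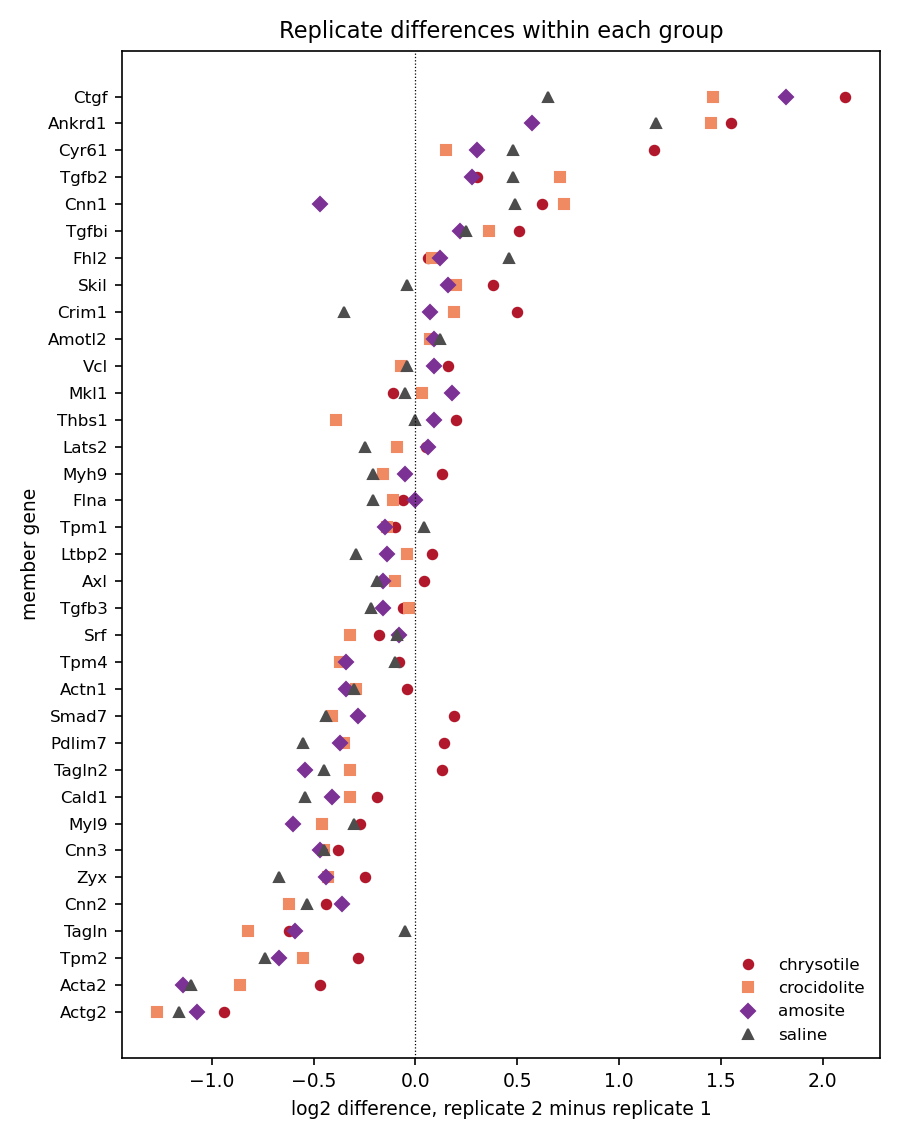
Replicate 2 minus replicate 1 within each group, on the log2 scale, for each of the 35 genes, ordered by its mean over the groups; symbols mark the group. Actg2, Acta2 and Tpm2 lie left of 0 in all 4 groups and Ctgf and Ankrd1 right of 0 in all 4.

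Other probes of the same genes gave a partial check. In 14 genes more than 1 probe passed the filter, and 11 of them had the same sign for crocidolite minus amosite on every passing probe. The exceptions were Cnn3, Tgfb2 and Tpm1. For Tpm1, whose probes hit different transcripts, the 6 probes ran from -0.18 to 0.32. Of the 20 probes not used, 14 were positive for crocidolite minus amosite, against 48.5% of all genes. For crocidolite minus saline 12 were positive (46.3%) and for chrysotile minus saline 11 (48.8%). These counts lie nearer to the shares of all genes than those of the brightest probes, which were 34, 33 and 32 of 35.

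Other genes of the same pathways, from lists set up beside the 36, had smaller medians, and none passed the adjusted threshold in limma's fit. Of 19 further TGF-beta signalling genes tested, 13 were higher with chrysotile, 14 with crocidolite and 5 with amosite, with medians of 0.12, 0.13 and -0.04. Inhba, which encodes the activin A subunit, had levels of 0.04 and 0.72 with chrysotile, 0.56 and 0.33 with crocidolite, -0.56 and -0.71 with amosite and -0.42 and -0.57 with saline. Chrysotile and crocidolite were clear of saline and amosite overlapped it, with differences of 0.88 ± 0.24, 0.94 ± 0.24 and -0.14 ± 0.24. The SMAD co-repressor Tgif1 differed by 0.55 ± 0.20, 0.62 ± 0.20 and -0.04 ± 0.20. In the opposite direction, Ltbp1 was the lowest of the list with each fibre, at -0.41 ± 0.17, -0.33 ± 0.17 and -0.22 ± 0.17. Smad3 was also lower with each, at -0.30 ± 0.12, -0.26 ± 0.12 and -0.15 ± 0.12. Bambi, a decoy receptor, was not above background on any array.

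Of 15 further TGF-beta targets, 9, 10 and 7 were higher with chrysotile, crocidolite and amosite, with medians of 0.09, 0.19 and -0.03. Snai1, a repressor of epithelial genes, differed from saline by 1.09 ± 0.34, 1.05 ± 0.34 and 0.05 ± 0.34. In the opposite direction, Id2 had the lowest difference of the list with chrysotile, -0.54, and with crocidolite, -0.88. Postn was lower as well, at -0.45 ± 0.17, -0.61 ± 0.17 and -0.21 ± 0.17 for the 3 fibres.

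The 19 core Hippo and YAP components were split between higher and lower: 6, 10 and 7 were higher with chrysotile, crocidolite and amosite, with medians of -0.05, 0.00 and -0.02. Tead4, a partner of YAP, differed by 0.14 ± 0.35, 0.89 ± 0.35 and -0.06 ± 0.35. Its crocidolite value rests mostly on replicate 2, with arrays at -1.50 and -0.38 against -1.84 on both saline arrays. Vgll3, a TEAD co-factor, differed by -0.23 ± 0.58, -0.58 ± 0.58 and -0.24 ± 0.58. Of 13 further YAP targets tested, 8, 8 and 7 were higher (medians 0.04, 0.13 and 0.00). Among them Igfbp3, an IGF-binding protein, differed by 0.59 ± 0.53, 0.96 ± 0.53 and 0.42 ± 0.53. Its saline arrays stood at -2.66 and -1.12, and every fibre overlapped them. Rbms3, an RNA-binding protein, differed by -0.35 ± 0.21, -0.17 ± 0.21 and -0.11 ± 0.21. Nt5e was not above background on any array.

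Of 22 further SRF and actin genes tested, 17, 15 and 8 were higher with chrysotile, crocidolite and amosite, with medians of 0.15, 0.12 and -0.05. Acta1, skeletal alpha-actin, differed by 0.65 ± 0.43, 1.00 ± 0.43 and 0.12 ± 0.43. Filip1l, a filamin-interacting protein, differed by 0.62 ± 0.41, 1.00 ± 0.41 and 0.37 ± 0.41. The lowest in the list with chrysotile and with crocidolite was Myh10, a non-muscle myosin heavy chain, at -0.53 and -0.46. Myocd, the muscle co-factor of SRF, and Actc1, cardiac actin, were not above background on any array.

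Markers of other cell types were read beside these genes, since in bulk RNA a change in the number of cells of a type and a change in RNA per cell cannot be told apart. Smooth muscle markers were split as well: of 6 tested of 8, 3 were higher with chrysotile, 2 with crocidolite and 2 with amosite, and Myh11, smooth muscle myosin heavy chain, stood at -0.52 with chrysotile and -0.60 with crocidolite. Their summed level was 17.0 to 20.0 with chrysotile, 16.4 to 19.4 with crocidolite, 16.5 to 20.9 with amosite and 15.3 to 21.8 with saline, and Myocd and Kcnmb1 were not above background on any array.

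Preadipocyte and fibroblast markers, all 10 of them measured, had 6, 6 and 2 higher with chrysotile, crocidolite and amosite, with medians of 0.04, 0.10 and -0.06. Their sum ran from 337 to 520 with chrysotile, 311 to 479 with crocidolite, 325 to 492 with amosite and 349 to 447 with saline. Dlk1, the brightest (6.97 to 8.11), weighs most in it. Ly6a (Sca-1) had levels of 2.65 and 3.32 with chrysotile, 2.89 and 3.00 with crocidolite, 2.24 and 2.06 with amosite and 1.89 and 2.44 with saline and so overlapped saline with amosite and not with the other fibres. S100a4 differed from saline by 1.25 ± 0.41, 1.06 ± 0.41 and 0.91 ± 0.41. Of 10 macrophage markers 6 were tested, with sums of 65.0 to 75.4, 61.7 to 69.3 and 62.2 to 66.6 for the 3 fibres and 66.5 to 74.0 for saline. Those sums follow mostly Itgam, the brightest (5.74 to 6.04), and hardly reflect the dimmer markers. Lyz2 and Mrc1 were not above background on any array, and Emr1 and Tyrobp were on 3 and 1. Of the 6, 4 were higher with chrysotile, 4 with crocidolite and 3 with amosite, with medians of 0.30, 0.24 and 0.02. Csf1r, the receptor of macrophage colony-stimulating factor, lay below both saline arrays on every fibre array, with differences of -0.45 ± 0.19, -0.37 ± 0.19 and -0.46 ± 0.19. The integrin chain Itgam stood at 0.01, -0.11 and -0.10. Cd14 differed by 0.70 ± 0.30, 0.96 ± 0.30 and 0.20 ± 0.30 and Mpeg1 by 0.96 ± 0.82, 0.99 ± 0.82 and -0.31 ± 0.82. Cd68 differed by 0.60 ± 0.17, 0.41 ± 0.17 and 0.13 ± 0.17. Its chrysotile and crocidolite arrays lay above both saline arrays, and amosite overlapped them. Ptprc, above background on 4 arrays, stood at -0.18, 0.06 and 0.29. Of the adipocyte markers 1, 1 and 2 of 10 were higher, with medians of -0.14, -0.13 and -0.07. The part of these markers in the differences of the 36 genes was not tested.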

How the data were processed

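Total RNA of 3T3-L1 adipocytes was read on 8 Agilent 1-colour arrays, 2 a group. Per the file headers, the authors' deposited intensity is the processed signal of Feature Extraction 10.7.1.1 (10.7 per the submitters' processing notes), already background-subtracted by the scanner software and not scaled between arrays. The deposited value table holds the same intensity (largest difference 0) and was used as an alternative.

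Control spots and outlier spots (99 to 183 an array) were left out, and spots of a probe were averaged. From each log2 intensity the array's own 75th percentile over 55681 probes (340.1 to 453.4 in intensity) was subtracted. Incomplete probes (9) were removed. The filter asked for the scanner's call of well above background on each array of 1 or more groups (33044 probes), and the brightest stood for each gene (23054 genes, 15139 with a symbol). This filter can keep a gene for being high in 1 group. Symbols were checked by transcript for 26762 probes against RefSeq (GRCm38.p6). Probe positions are those of the files (mm9).

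A single limma fit (version 3.58.1, R 4.3.3, with version 1.17.8 of data.table, lmFit and eBayes) over the 4 groups gave 6 comparisons, two-sided, with Benjamini-Hochberg adjustment over all genes at 0.05. It has 4 residual and 2.22 prior degrees of freedom, and was tested on simulated data. The number of arrays limits the precision. Same-numbered arrays deviated together in all 6 pairs of groups (correlation 0.254 to 0.455 over all genes). They were therefore treated as pairs, although the labels give only the replicate number. That number also followed the place on the slide, so a shared culture and a shared place cannot be told apart. The fit with the number as a block (3 residual degrees of freedom) is given where a count changes and for some genes. All standard errors and intervals come from the fit without the block, so they include the shift between replicates. Other alternatives were quantile and median scaling, normexp background correction (offset 50), other filters on dim probes, the mean of a gene's probes, the groups fitted alone, a trended and robust prior, and leaving out each array. All 36 genes are accounted for. Values on every array are given for the 14 with the largest absolute difference between the mean of the fibres and saline, and for further pathway lists the 2 largest are named, of which 1 is not reported here. The 36 genes and all lists were chosen with earlier results of these data known.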

Additional observations from a re-analysis of the deposited data

Results flagged for a closer look

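Thbs1, the matrix protein thrombospondin 1, stood on opposite sides of saline with different fibres. Its level was 3.03 and 3.23 on the chrysotile arrays, 3.48 and 3.09 on the crocidolite arrays, 2.90 and 2.99 on the amosite arrays and 3.00 and 3.01 on the saline arrays. Both chrysotile and both crocidolite arrays lay above both saline arrays and both amosite arrays below them. The difference of chrysotile minus saline exceeded that of amosite minus saline by 0.18, a difference that was not tested. The saline arrays lay within 0.01 of each other, and the differences from saline were 0.13 ± 0.16 for chrysotile, 0.28 ± 0.16 for crocidolite and -0.05 ± 0.16 for amosite (SE, n = 2 arrays a group).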

How the results depend on the processing

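In all alternatives 0 of the 36 genes were called. With the replicate block, 0 genes of all were called in each comparison too, and the medians of the set stayed at 0.22 for chrysotile, 0.28 for crocidolite and 0.02 for amosite against saline. Over all genes, quantile normalization gave 3, 2 and 2 called genes for chrysotile, crocidolite and amosite against saline and 2 for the mean of the fibres. Centring on the median gave 2, 1, 2 and 2, and 1 for chrysotile against the amphiboles. The mean of a gene's probes gave 1 for the mean of the fibres. Leaving out single arrays gave 0 to 67, 0 to 51, 0 to 58, 0 to 187 and 0 to 1 in the same order, the highest of the first 4 all without saline replicate 2. Such a fit leaves a lone sample, which is assumed to vary like the other groups.

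Centring on the median moved the median of all genes by 0.18 for crocidolite minus saline and 0.12 for crocidolite minus amosite. The set's median became 0.46 and 0.38 there, 0.08 for amosite minus saline and 0.25 for the mean of the fibres, with 25 of 35 genes positive for amosite and 18 for chrysotile against the amphiboles. The mean of a gene's probes gave 0.22 for crocidolite minus saline, 0.00 for amosite and 0.21 for crocidolite minus amosite, and quantile normalization gave 0.21 for the last. For amosite minus saline, normexp gave -0.01, no filter on dim probes 0.01 and the filter on all arrays 0.00. Without single arrays the medians ran from 0.15 to 0.38 (chrysotile), 0.24 to 0.34 (crocidolite), -0.15 to 0.08 (amosite), 0.11 to 0.25 (mean of fibres) and 0.20 to 0.34 (crocidolite minus amosite). The count of positive genes for amosite ran from 10 to 22, with 10 both without amosite replicate 1 and without saline replicate 2. Genes whose arrays lay above saline without overlap ran from 15 to 28 with chrysotile and 19 to 31 with crocidolite (28 and 31 without saline replicate 1, 24 without chrysotile replicate 2, 30 without crocidolite replicate 2) and 0 to 13 with amosite, 0 to 12 for the mean of the fibres (6 without saline replicate 2), 3 to 7 for chrysotile against the amphiboles and 20 to 30 for crocidolite minus amosite. Fewer arrays leave less to overlap, and the shares of all genes without single arrays are not given here, so these counts stand alone. Those counts were added after seeing the data.

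Signs turned in 31 values of 17 gene differences, 28 of them on leaving out an array. With amosite minus saline, normexp gave -0.01 for Actg2 and 0.00 for Tagln, and the mean of a gene's probes gave -0.02 for Tpm2. On leaving out arrays, amosite minus saline ran from -1.19 to 0.63 for Ctgf, -0.10 to 0.38 for Cyr61, -0.28 to 0.86 for Acta2, -0.38 to 0.78 for Actg2, -0.24 to 0.35 for Tagln, -0.18 to 0.37 for Pdlim7, -0.02 to 0.32 for Tpm4, -0.21 to 0.53 for Tpm2, -0.36 to 0.19 for Tagln2, -0.34 to 0.10 for Smad7, 0.00 to 0.46 for Fhl2, -0.18 to 0.42 for Myl9 and -0.16 to 0.37 for Cnn2. Cnn2 also turned with chrysotile (-0.05 to 0.48), with the mean of the fibres (-0.04 to 0.49) and with crocidolite minus amosite (-0.08 to 0.54), and Ankrd1 in the last (-0.02 to 1.43). Leaving out an array breaks a replicate pair. Of these 17 differences 14 had the same sign in both pairs, and the exceptions were Ctgf, Tagln and Myl9 in amosite minus saline. Values of the 14 named genes moved by over 1.5 times in 18 cases with normexp, 6 with centring on the median and 5 with the mean of a gene's probes, counted over differences of at least 0.1. The cause of these changes was not tested. Groups fitted alone could give no separate value for the mean of the fibres, which uses all arrays.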
